A study of Macaca mulatta with 20 samples.

Results

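DEFB119 and DEFB122 are beta-defensin genes whose mean signal fell stepwise from the early to the very-late stage of the macaque corpus luteum, the pattern for which they were chosen. Every probe set (the group of probes that measures 1 transcript) annotated with only the symbol DEFB119 or DEFB122 was taken. This gave 2 probe sets for DEFB119 and 3 for DEFB122, so 5 of 52707 probe sets and 2 of 14132 genes. They were chosen by their stage means, which are the measured values used, so their stage levels are described here without a test. Among the 822 genes whose stage means fell at all 4 steps, DEFB122 had the largest early minus very-late difference and DEFB119 ranked 7. Both ranks come from the brightest probe set of the gene, whose very-late signal lay at background, and the other 2 probe sets of DEFB122 do not share that fall.

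Beta-defensins are small, cationic, secreted peptides held together by disulfide bonds, and they act against bacteria and other microbes at epithelial surfaces. Some also bind receptors of immune cells, such as the chemokine receptor CCR6. DEFB119 and DEFB122 belong to a gene cluster that is best known from the testis and epididymis, where many of its members coat sperm or the duct epithelium. In humans DEFB122 is a pseudogene. The corpus luteum, built from the wall of the follicle after ovulation, secretes progesterone and regresses at the end of a cycle without conception.

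The series profiled corpora lutea of female rhesus macaques (Macaca mulatta) in natural menstrual cycles, with no treatment and no genetic change in any group. Glands were collected at 5 stages counted from the midcycle surge of luteinizing hormone, with 4 arrays per stage described as biological replicates. The early stage covered days 3 to 5, while the gland was luteinizing, and the mid stage days 7 to 8, at full progesterone output. The mid-late stage covered days 10 to 12, before regression, the late stage days 14 to 16, when progesterone secretion ceases, and the very-late stage days 18 to 19, at menses. The labels give no animal ages. P-values measure the spread between these samples only.

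Values are log2 signals of a whole gland. Array medians ran from 3.88 to 3.98. As a floor, 683 probe sets for viral genomes had a median of 3.42, and their 95th percentile on each array ran from 4.17 to 4.44. Signals above the 95th percentile of the same array are called above background. The tissue label was checked against luteal steroidogenic markers: all 6 measured members (10 listed) were above background on every array. Very-late replicate 1 stood apart by a 3' minus 5' GAPDH difference of 2.70, against 0.831 to 1.78 in the other arrays. In addition, 4 mitochondrial probe sets averaged 6.06 to 8.50 in 7 arrays and 12.6 to 13.6 in the other 13. Low arrays made up the whole mid stage, and 1 low array each came from the early stage (number 4), the mid-late stage (number 1) and the very-late stage (number 2).

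The brighter DEFB119 probe set, MmugDNA.34257.1.S1_at, read 7.45, 8.55, 7.99 and 9.0 in early replicates 1 to 4, with a mean of 8.25 ± 0.67 (SD, n = 4). Its mid values were 7.65, 6.38, 6.85 and 6.99 (mean 6.97 ± 0.53). In the mid-late stage it gave 5.28, 5.82, 5.63 and 6.50 (mean 5.81 ± 0.51). The early and mid arrays overlapped through mid replicate 1, and the mid and mid-late arrays overlapped through mid-late replicate 4. In the late stage it read 3.79, 4.27, 4.73 and 4.02 (mean 4.20 ± 0.40), below every mid-late array, with only late replicate 3 above background. The very-late arrays gave 3.78, 3.98, 3.86 and 3.85 (mean 3.87 ± 0.08), all at background and overlapping the late arrays. From mid-late to late, the only neighbouring pair of stages without overlap, the mean fell by 1.61, which is 36.7% of the whole measured fall.

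Summed over the steps, the late minus early difference of DEFB119 was -4.04 on the log2 scale, or 16.5-fold lower (SE of the log2 difference 0.32). With 3 of the 4 late arrays at background, this fold is partly set by that level. In the very-late stage, with all 4 arrays at background, the measured difference was -4.38. Set against the 95th percentile of the viral probe sets on each of those arrays, DEFB119 was at least 14.7-fold lower than in the early stage. In a whole gland, fewer cells of a type and less RNA per cell cannot be told apart.

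The second DEFB119 probe set, MmugDNA.43174.1.S1_at, was above background mainly in the early stage. Early replicates 1 to 4 read 5.78, 7.34, 6.86 and 7.71 (mean 6.92 ± 0.84), all above background. In the mid stage, replicate 1 read 6.45 while the other mid arrays read 4.24, 4.01 and 3.97. That replicate was also the highest mid array on the brighter probe set. The mid-late, late and very-late arrays ran from 3.14 to 4.04, with none above background. The mid minus early difference of this probe set was -2.26, with 3 of the 4 mid arrays at background. Its measured very-late minus early difference was -3.58, and against the background level the very-late signal was at least 5.89-fold lower. It carries a different gene identifier, and the RefSeq table lists DEFB120 as a synonym of DEFB119.

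DEFB122 kept a high signal for longer. Its brightest probe set, Mmu.10186.1.S1_at, read 10.48, 11.00, 9.86 and 11.31 in early replicates 1 to 4 (mean 10.66 ± 0.63) and 10.26, 10.67, 10.83 and 9.75 in the mid arrays (mean 10.38 ± 0.48). The 2 stages overlapped almost fully. Mid-late arrays gave 9.86, 9.29, 8.96 and 9.77 (mean 9.47 ± 0.42), overlapping the mid arrays at their lower end. In the late stage the values were 4.59, 7.25, 7.03 and 6.63 (mean 6.37 ± 1.22). Late replicate 1 stood far below the other late arrays, yet all 4 were above background and all lay below every mid-late array. The very-late arrays read 4.10, 4.07, 4.22 and 4.36 (mean 4.19 ± 0.13), all at background and below every late array.

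The mean on this DEFB122 probe set changed by -0.29 from early to mid, -0.91 from mid to mid-late, -3.10 from mid-late to late and -2.19 from late to very-late (SE 0.44 each). The last 2 steps, which span functional and structural regression, held 47.8% and 33.8% of the whole measured fall. The late minus early difference was -4.29, or 19.5-fold lower, and -3.69 without late replicate 1. The measured very-late minus early difference was -6.47, with all very-late arrays at background. Against the background level of those arrays, the very-late signal was at least 78.6-fold lower than the early one.

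**Figure D1:**
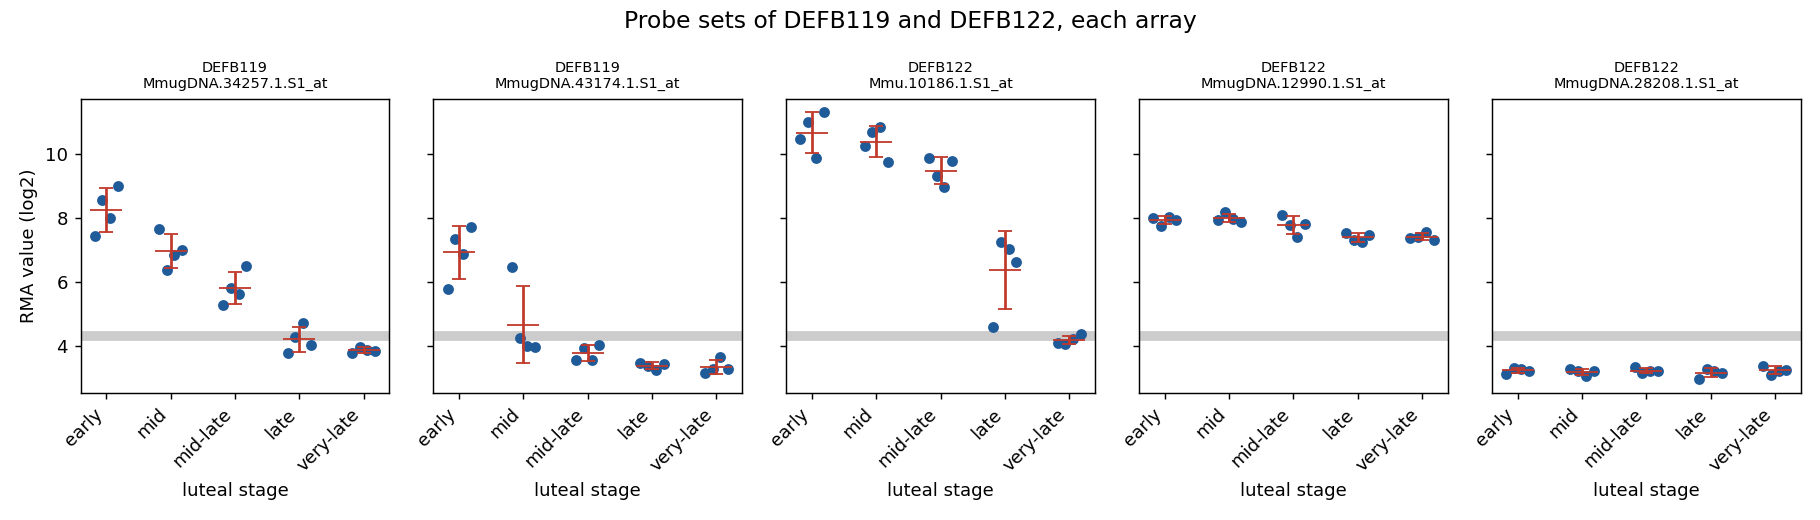
Log2 signal (y axis) of each DEFB119 and DEFB122 probe set by luteal stage (x axis), with 1 point per array, a red bar for the mean ± SD of 4 arrays, and a grey band for the range over arrays of the 95th percentile of viral probe sets, 4.17 to 4.44. DEFB119 on its brighter probe set goes down from stage to stage and reaches the band in the late arrays, while DEFB122 on its brightest stays at 8.96 or above through the mid-late stage and reaches the band in the very-late arrays.

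The other DEFB122 probe sets did not show this fall. MmugDNA.12990.1.S1_at had means of 7.93, 7.99, 7.77, 7.39 and 7.42 from early to very-late, so the late minus early difference was only -0.54 (SE 0.11) although the early and late arrays did not overlap. MmugDNA.28208.1.S1_at stayed between 2.95 and 3.38 on all 20 arrays, never above background, and its late minus early difference was -0.08. The 3 probe sets annotated to DEFB122 therefore disagree, and the fold changes of DEFB122 given here belong to Mmu.10186.1.S1_at alone. No probe sequences were used here, so which transcript each one reads was not tested.

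Across the 5 member probe sets, 3 had stage means that fell at every step, a pattern found in 3.2% of all probe sets. In 4 of the 5, every early array lay above every late array (6.48% of all probe sets), and in the same 4 every early array lay above every very-late array (8.87%). These patterns are what the genes were chosen for, so nothing is read from the counts.

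The falls of the members were of similar size without the arrays that stood apart. Without very-late replicates 1 and 2, the very-late minus early difference was -4.39 for DEFB119 and -6.37 for DEFB122. On the 13 arrays with high mitochondrial signal, which hold no mid array, the late minus early differences were -3.79 and -4.07, and the very-late minus early differences -4.16 and -6.22.

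The spread of arrays within a stage was not used to choose the genes, and it was tested as deviations from the stage means on 20 arrays. The deviations of both DEFB119 probe sets went together, with Pearson's r = 0.70 (permutation of arrays within stages, two-sided p = 0.00620, adjusted p = 0.0372 over 6 pairs). Spearman's rho was 0.63 (permutation p = 0.0166, adjusted p = 0.0995), so the rank measure did not pass after adjustment. Without early replicates 1 and 4, the 2 arrays farthest from the median on the brighter probe set, r was 0.57. That fit kept mid replicate 1, which had the largest deviation of the second probe set, 1.78. The second probe set was above background on the 4 early arrays and 1 mid array only, so its other deviations lie at background. In every late array the deviations of the DEFB119 probe sets had opposite signs. Between the brightest probe sets of DEFB119 and DEFB122 the relation was weaker and did not pass: r = 0.37 (permutation p = 0.164, adjusted p = 0.327), rho = 0.38 (permutation p = 0.173, adjusted p = 0.346), and r = 0.31 without the same 2 arrays. On the 13 arrays with high mitochondrial signal this r was 0.61 (permutation p = 0.0694). For the other 4 pairs r ran from -0.41 to 0.08 and the lowest permutation p of r was 0.129. The pair with r = -0.41, the brighter DEFB119 probe set and MmugDNA.12990.1.S1_at of DEFB122, had rho = -0.54 (permutation p = 0.0374, adjusted p = 0.112).

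Whether other defensins followed was asked with limma, fitted to all 52707 probe sets with 5 stage means and Benjamini-Hochberg adjustment. A call is an adjusted p under 0.05. The array measured 12 other defensin genes with 15 probe sets: DEFA1, DEFA6, DEFB1, DEFB4A, DEFB108B, DEFB118, DEFB121, DEFB123, DEFB125, DEFB127, DEFB129 and DEFB132. None of the 15 passed limma's test of any difference between stages, against 21.5% of all probe sets, and 0 did so at an unadjusted p under 0.05. In late minus early 0 passed (1 unadjusted) against 7.58% of all, and in very-late minus early 0 passed (3 unadjusted) against 18.7%. The medians over the 12 genes were -0.02 for late and -0.003 for very-late, beside -3e-05 and 0.02 over all probe sets.

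Of the 15 probe sets, 13 were never above background in any stage. The exceptions were 1 probe set of DEFB121 and that of DEFB4A, which were above background on all 20 arrays. DEFB121 lies between DEFB119 and DEFB122, and its probe set Mmu.10185.1.S1_at stayed between 7.29 and 7.66, with a late minus early difference of -0.07 ± 0.07 (SE, limma adjusted p = 0.669). DEFB4A, an inducible epithelial defensin, stayed between 4.93 and 5.45. The nearest to a call was DEFB123 on Mmu.13271.1.S1_s_at, whose late minus early difference was -0.42 ± 0.13 (limma unadjusted p = 0.00461). That value was called without dim probe sets (adjusted p = 0.0485) and in some of the other fits.

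The order of genes along the chromosome was taken from the RefSeq gene table of the T2T-MMU8v2.0 assembly, used only for names and order. DEFB119, DEFB121 and DEFB122 follow each other there. On one side lie DEFB118, DEFB116, DEFB115, DEFB125 to DEFB129, DEFB132 and C10H20orf96, and on the other DEFB123, DEFB124, REM1, HM13, ID1, COX4I2, BCL2L1, TPX2, MYLK2 and FOXS1. Of these 21 neighbours with DEFB121 included, 16 were measured and 3 passed limma's test of any difference, a share near the 21.5% of all probe sets. None was a defensin.

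TPX2, a spindle assembly factor, fell too, with a difference of -0.64 ± 0.14 from early to late (SE, limma adjusted p = 0.00642) and -0.88 to very-late (adjusted p = 0.000109). It was the only neighbour called lower in the late stage (3.97% of all probe sets were) and in the very-late stage (9.21% were). COX4I2, a subunit of cytochrome c oxidase, went the other way, from 7.28 ± 0.87 in early to 8.84 ± 0.10 in late arrays (SD, n = 4), a rise of 1.56 ± 0.35 (SE, limma adjusted p = 0.0105). In very-late arrays its mean was 7.61 ± 0.71, a difference of 0.33 ± 0.35 from early (limma adjusted p = 0.624). FOXS1, a forkhead transcription factor, was 0.35 ± 0.10 higher in the late stage (limma adjusted p = 0.0481), a call lost in 13 of the 20 fits that leave out 1 array, and with both other scalings (adjusted p = 0.0660 and 0.0698). In late minus early the share of all probe sets called higher was 3.61%. BCL2L1, an inhibitor of apoptosis named after its values were seen, was the only neighbour called higher in very-late, by 0.76 ± 0.21 (limma adjusted p = 0.0137), where 9.45% of all probe sets were. It missed the test of any difference (limma adjusted p = 0.0547). The median over the measured neighbours was -0.04 in late and -0.03 in very-late.

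**Figure D2:**
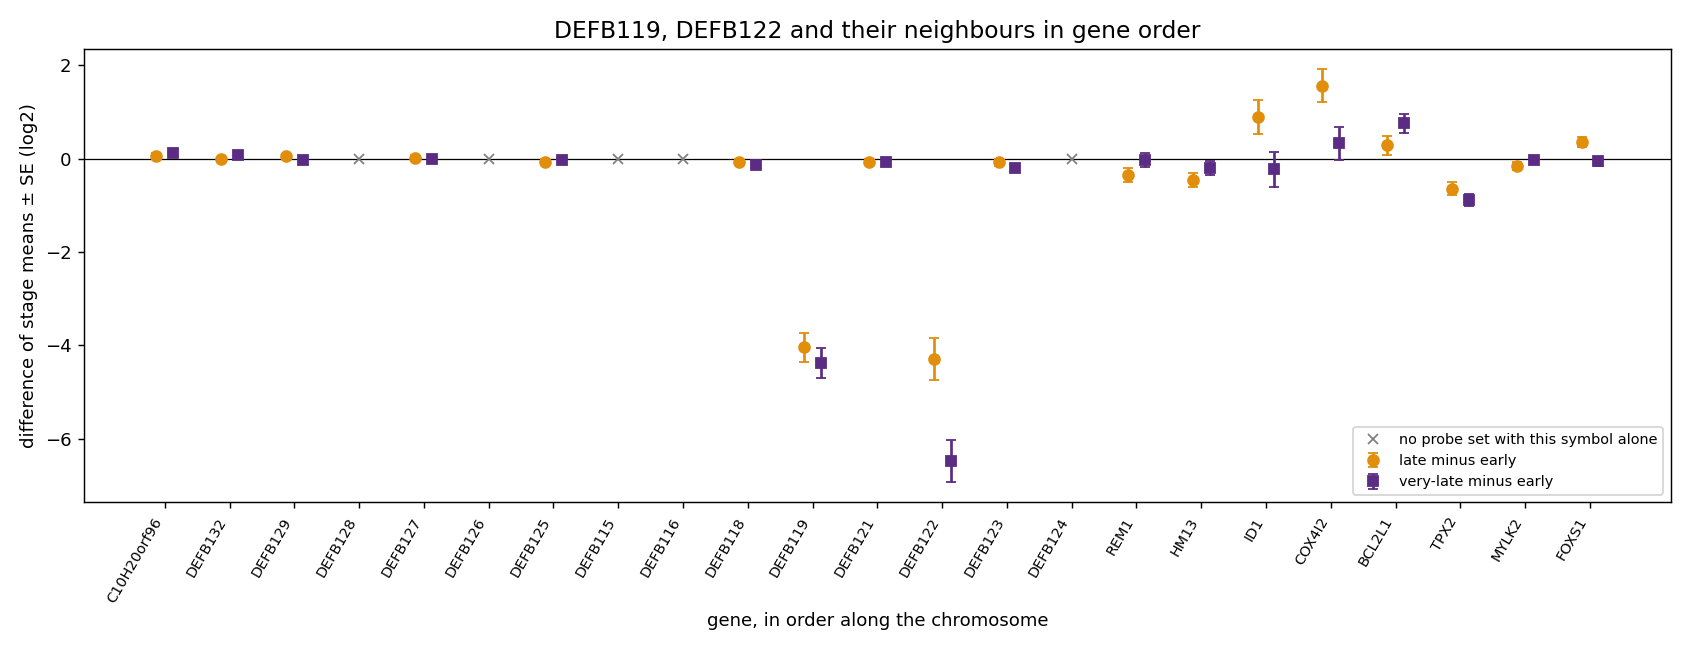
Log2 difference from the early stage (y axis, with SE bars from limma) for the late and the very-late stage, for each measured gene in RefSeq order around DEFB119 and DEFB122 (x axis, not to distance), with a cross for a gene without a probe set of its symbol alone. DEFB119 and DEFB122 lie at -4.04 and -4.29 in late and -4.38 and -6.47 in very-late, while COX4I2 at 1.56 in late is the neighbour farthest above 0.

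The genes whose profile over the 20 arrays was most like that of each member differed between them, and no gene was in both groups of 10. This likeness is a description, and it is set largely by the stage means. The groups are not sharply apart. Genes nearest to DEFB119 had r of 0.77 (MRPL4) to 0.91 (ZDHHC4) with DEFB122. Those nearest to DEFB122 had r of 0.79 (HSD11B1) to 0.91 (LOC712957) with DEFB119. For DEFB119, Pearson's r was highest for YIF1A at 0.96, a membrane protein of transport between the endoplasmic reticulum and Golgi. MFSD2A, a lysophospholipid transporter, followed at 0.95, then LOC697534, FSTL3, ZDHHC4 and DXO at 0.94, and MRPL4, UBE2K, SFXN2 and ITCH at 0.93. Their very-late minus early differences ran from -0.66 (DXO) to -2.90 on the log2 scale, the latter for FSTL3, a secreted protein that binds activin. In all, 50 genes had r above 0.9 with DEFB119.

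For DEFB122, the nearest gene was HSD3B2, the enzyme that makes progesterone from pregnenolone, at r = 0.97. LOC712957 had r = 0.96, UNC119, a lipid-binding trafficking protein, 0.95, and HSD11B1, which activates glucocorticoid, also 0.95. KCNK3 (a potassium channel), CFAP36, TOP2A (a DNA topoisomerase of dividing cells) and CDK16 had 0.94, and NANOS1 and GLE1 0.93. In all, 61 genes had r above 0.9 with DEFB122. The r between the 2 members was 0.89, which ranked DEFB122 67 among the genes most like DEFB119 and DEFB119 86 among those most like DEFB122. The top 10 depended on the measure: Spearman's rho kept 3 of the 10 for DEFB119 and 2 for DEFB122. Ranking by r of the stage means kept 0 and 2, and r of within-stage deviations kept 0 and 1.

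**Figure D3:**
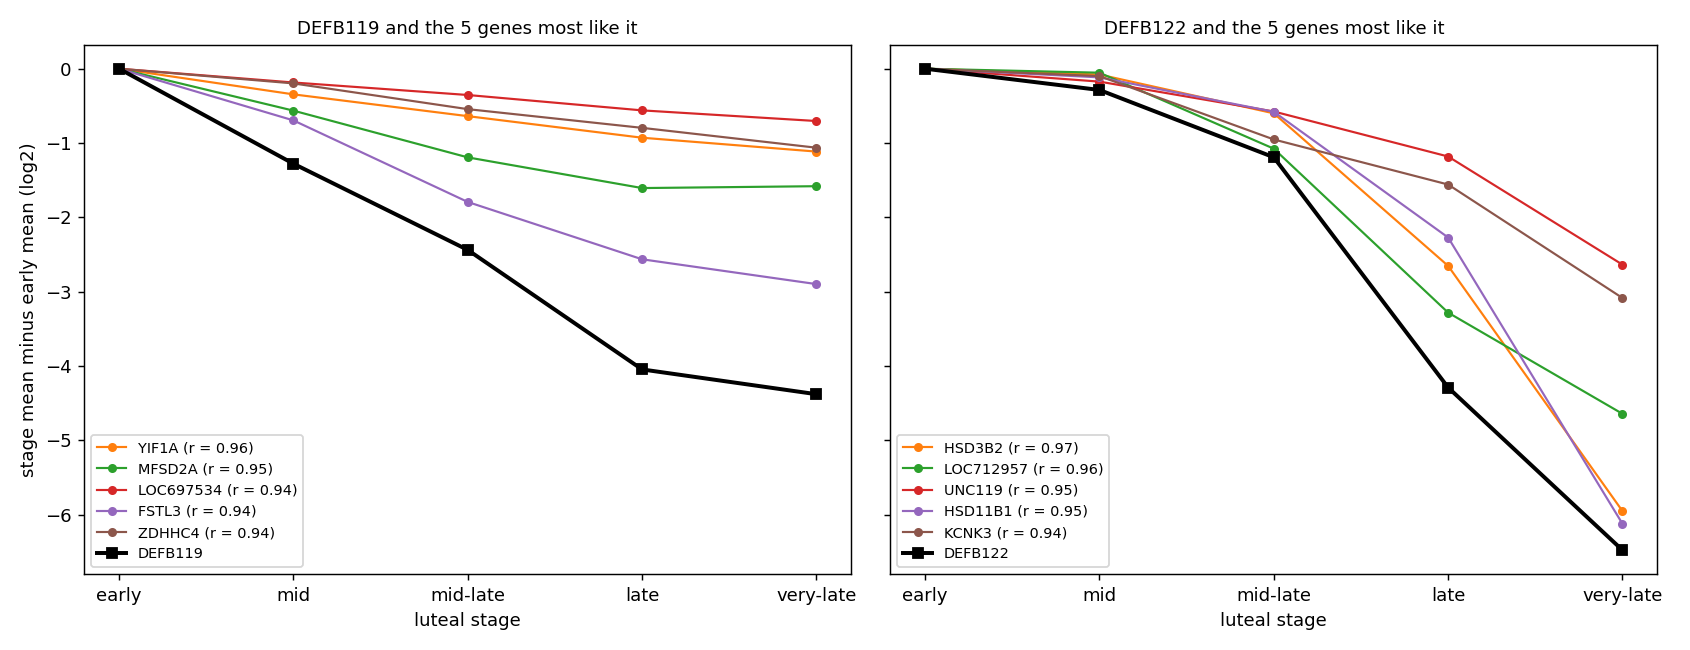
Stage means minus the early mean (y axis, log2) over the 5 stages (x axis) for DEFB119 and DEFB122 and for the 5 genes most like each by Pearson's r over 20 arrays. The DEFB119 profile lies at -1.28 already in the mid stage, while DEFB122 lies at -0.29 in the mid stage, -1.19 in mid-late and -4.29 in late, and the genes nearest to it also stay near 0 in the mid stage.

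The late arrays show the likeness of DEFB122 and HSD3B2 array by array. HSD3B2 read 7.67, 10.16, 9.98 and 9.57 in late replicates 1 to 4, in the same order as DEFB122, and HSD11B1 read 8.47, 9.90, 9.97 and 9.38. STAR, which delivers cholesterol to the mitochondrion, read 13.30, 13.38, 13.44 and 13.33 in the same arrays, a narrow range with replicate 1 lowest. Late replicate 1 was also the lowest late array of DEFB119 on its brighter probe set (3.79) and of FSTL3 (6.65), YIF1A (8.49) and PI3 (4.37). A low value in that array is thus not particular to DEFB122 and HSD3B2. With the stage means removed, r of DEFB122 with HSD3B2 was 0.76 (rho 0.46), but it dropped to 0.24 without late replicate 1. For HSD11B1 the within-stage r was 0.72, and 0.50 without that array. The relation to HSD3B2 within stages thus rests mainly on 1 array. Both enzymes were picked by their r with DEFB122 over these same arrays, which includes the within-stage deviations. Their within-stage r is therefore a description and not a separate check.

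**Figure D4:**
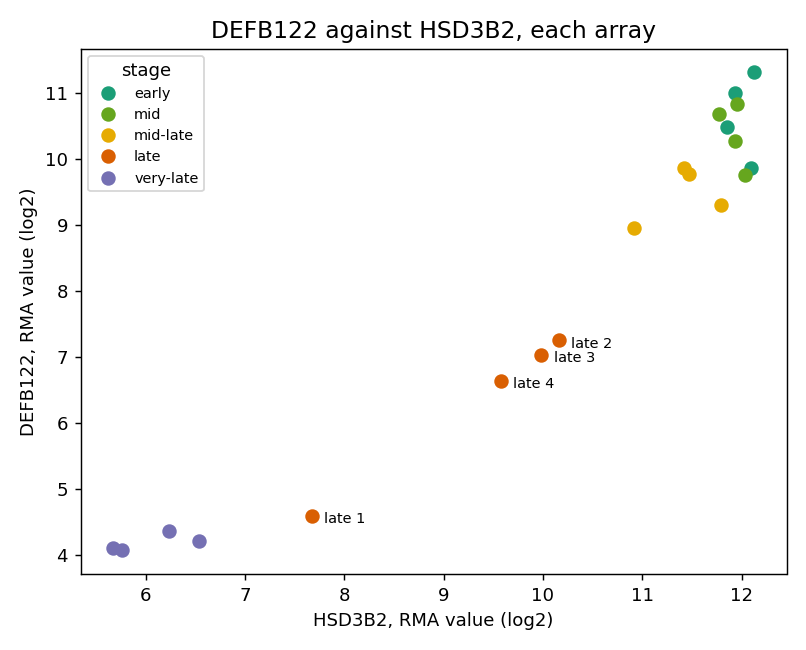
Log2 signal of DEFB122 (probe set Mmu.10186.1.S1_at, y axis) against HSD3B2 (x axis), with 1 point per array coloured by stage. Late replicate 1, at 4.59 for DEFB122 and 7.67 for HSD3B2, lies apart from the other late arrays and nearer to the very-late ones.

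Other antimicrobial peptides and proteins did not share one course. Of 33 listed genes 25 were measured, 11 of them never above background. Of the 25, 5 passed limma's test of any difference, a share near the 21.5% of all probe sets. In the late stage 1 was lower and 1 higher (3.97% and 3.61% of all probe sets). In the very-late stage 1 was lower and 3 higher (9.21% and 9.45%). List medians were -0.04 in late and 0.02 in very-late, close to those of all probe sets.

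The member of that list that fell was PI3, or elafin, a secreted inhibitor of neutrophil elastase with antibacterial activity. PI3 read 8.54, 6.62, 6.46 and 8.45 in early, 6.19, 5.48, 5.65 and 6.83 in mid and 5.08, 5.02, 5.16 and 5.32 in mid-late replicates 1 to 4. The late arrays gave 4.37, 4.71, 4.76 and 4.94, and the very-late arrays 4.16, 4.17, 4.55 and 4.38. Early arrays were thus all above mid-late, late and very-late ones. PI3 fell by 2.82 ± 0.39 from early to late (SE, limma adjusted p = 0.000263) and the very-late difference was -3.20 ± 0.39 (adjusted p = 8.40e-06).

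LYZ, the lysozyme of phagocytes, moved the opposite way, from 8.12 ± 0.29 in early to 10.37 ± 0.84 in late and 11.66 ± 0.21 in very-late arrays (SD, n = 4), and rose by 2.25 ± 0.46 in late (SE, limma adjusted p = 0.00548). RNASE6, an antibacterial ribonuclease, rose by 2.70 ± 0.40 in very-late (adjusted p = 8.50e-05). CAMP, the cathelicidin precursor, named after its values were seen, rose by 1.31 ± 0.16 in the same stage (limma adjusted p = 6.66e-06). RNASE6 and GNLY each had 2 probe sets, and only the brighter one, used here, passed the test of any difference. GNLY, granulysin of cytotoxic lymphocytes, passed it (limma adjusted p = 0.0235) with its highest mean, 8.92, in the mid stage. Its adjusted p rose to as much as 0.0787 when 1 array was left out, and the call was lost without mid replicate 1 or 2 or late replicate 2, 3 or 4. On the arrays with high mitochondrial signal, where no mid array is left, it was 0.517.

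No measured receptor that beta-defensins are known to bind or act through was called lower in late or very-late. Their early means ran from 3.41 (CCR2) to 4.70 (TLR4), at or near background, so they had little room to fall. Of 7 listed, 5 were measured: none was called in the late stage (7.58% of all probe sets were) and 4 were higher in the very-late stage (9.45%). CCR6, the receptor best known for beta-defensins, had stage means of 4.29 to 4.35, near background (limma adjusted p = 0.988 for any difference). TLR4, the lipopolysaccharide receptor, was 3.28 ± 0.28 higher in very-late than in early arrays (limma adjusted p = 1.32e-07), TLR2 2.35 ± 0.23 and TLR1 2.13 ± 0.33. TLR1 was above background on only 8 of the 20 arrays, with an early mean of 3.89. CCR2, named after its values were seen, was 0.54 ± 0.16 higher (limma adjusted p = 0.0207), but only 1 of the 20 arrays had it above background. The list median was 0.28 in late and 2.13 in very-late.

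Among microbial sensors and the signalling proteins known to induce defensins, 19 of 23 were measured, 1 was lower and 0 higher in late (3.97% and 3.61% of all probe sets), and 1 was lower and 11 higher in very-late (9.21% and 9.45%). TLR1, TLR2 and TLR4 are counted here and among the receptors. Of those called higher, TLR8 was never above background, NOD2 was on only 1 of the 20 arrays and TLR5 on 6. LY96, the co-receptor of TLR4, rose by 2.88 ± 0.29 (limma adjusted p = 1.21e-06), and CD14, another lipopolysaccharide co-receptor, by 2.13 ± 0.35 (adjusted p = 0.000196). LY96 was above background on only 6 of the 20 arrays, with an early mean of 4.23. The list medians were 0.07 in late and 0.35 in very-late. Macrophage markers moved in the same direction: 6 of 9 measured were higher in very-late, CD68 by 3.31 ± 0.27 (limma adjusted p = 1.00e-07), and the mean level of the list went from 6.51 to 6.97 in early to 8.26 to 8.93 in very-late arrays. CD14 is in both lists. The part of macrophage content in these rises was not tested.

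Markers of the cells that could hold the defensin RNA moved with the members to different degrees. Luteal steroidogenic markers had 2 of 6 lower in late (3.97% of all probe sets were) and 6 of 6 in very-late (9.21%), with medians of 0.08 and -2.81. Their mean level ran from 10.6 to 10.9 in early, 10.1 to 10.5 in late and 6.78 to 8.51 in very-late arrays. STAR differed by 0.17 ± 0.38 between late and early (limma adjusted p = 0.888) and INHA, the inhibin alpha subunit, by 0.24 ± 0.50 (adjusted p = 0.881). HSD3B2 fell by 2.65 ± 0.37 in late (limma adjusted p = 0.000324). The part of steroidogenic cell content in the fall of the defensins was not tested.

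Of 10 measured granulosa cell markers 2 were lower in late (3.97% of all probe sets were) and 5 in very-late (9.21%), with medians of -0.25 and -0.81. Those lower in late were FSTL3, at -2.56 ± 0.21 (limma adjusted p = 5.29e-06), and FST, another activin-binding protein, at -1.47 ± 0.36 (adjusted p = 0.0162). The call of FST was lost without early replicate 3 or 4 or late replicate 2. AMHR2, AMH, INHA and SERPINE2 had late minus early differences of 0.20 to 0.50, none past the test, and INHA is also a luteal marker here. INHBA, with the largest range of stage means in this list, differed by -0.54 ± 0.51 in late (limma adjusted p = 0.663). In very-late its difference was -4.19 (limma adjusted p = 9.23e-06). FSTL3 is also among the genes most like DEFB119. Genes of the ovulating follicle had 3 of 6 lower in late and 5 in very-late (medians -0.91 and -2.70). PTX3, a matrix protein of the expanded cumulus, fell by 2.63 ± 0.45 in late (limma adjusted p = 0.00143). Its late mean was 3.68, below background, so the size of this fall is partly set by that level. AREG fell by 1.68 ± 0.46 in late (limma adjusted p = 0.0320), a call lost in 5 of the 20 fits that leave out 1 array. On the arrays with high mitochondrial signal its limma adjusted p was 0.0882. TNFAIP6 and ADAMTS1 had late minus early differences of -0.41 and -0.64, neither called (limma adjusted p = 0.703 and 0.375). Over the 6 follicle genes the mean level ran from 7.93 to 8.68 in early and 6.89 to 7.42 in late arrays, without overlap. Of all probe sets, taken singly, 6.48% also had every early array above every late array, so nothing is read from this separation. The part of these cells in the fall of the defensins was not tested.

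Epithelial markers, listed because beta-defensins are best known from epithelia, had 1 of 12 measured lower in late, and 1 lower and 1 higher in very-late. Among all probe sets 3.97% were lower in late, and 9.21% were lower and 9.45% higher in very-late. The keratin KRT8 fell by 2.42 ± 0.40 in late (SE, limma adjusted p = 0.00106), while its partner KRT18 had means of 6.69 to 7.34 and did not pass (adjusted p = 0.473). EPCAM, CDH1 and KRT7 were never above background on any array, in the early stage included. The oviduct glycoprotein OVGP1 was 0.40 ± 0.11 higher in very-late (limma adjusted p = 0.0186), a call lost without early replicate 4 or very-late replicate 2 or 3, and on the arrays with high mitochondrial signal (adjusted p = 0.108). The mean level of the list ran from 4.80 to 5.14 in early and 4.65 to 4.89 in late arrays. Neutrophil markers had 0 of 6 called in late and 1 higher in very-late (7.58% and 9.45% of all probe sets). Their mean levels were 3.77 to 3.86 in early arrays, below background.

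Of the remaining lists, 3 of 7 endothelial markers were higher in late and 1 in very-late. Of 5 fibroblast markers 1 was higher in late and 2 were lower in very-late, and 1 of 3 theca markers was higher in very-late. Among all probe sets 3.61% were higher in late, and 9.45% were higher and 9.21% lower in very-late. Of the endothelial calls in late, that of EMCN was lost in 13 of the 20 fits that leave out 1 array, and that of TEK without early replicate 2 or 4 or late replicate 4. In none of these 3 lists was a member called lower in the late stage, where 3.97% of all probe sets were, so nothing is read from that count.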

How the data were processed

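Total RNA of each corpus luteum was labelled and hybridised to 1 Affymetrix rhesus array. The authors' deposited values are log2 signals, 1 per probe set, made with RMA per the submitters' processing notes; its version and the chip definition are not given in the sources used here. RMA quantile normalization can mask global shifts. Values between 2.48 and 14.28 gave the log2 unit and were used unscaled.

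The table held 52865 probe sets, and the 158 array controls among them were dropped. Names came from the platform annotation: 24956 probe sets had 1 symbol, 361 several and 27390 none, and 340 gene identifiers did not match the RefSeq table. Each listed gene is represented by its brightest probe set. In R 4.3.3, limma 3.58.1 (lmFit, eBayes, two-sided) fitted 5 stage means to 20 arrays, with early as baseline, no filter and Benjamini-Hochberg adjustment. Within-stage relations used 100000 permutations. The number of arrays limits the precision. The scripts were tested on simulated data.

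The members, lists and tests were chosen with earlier results of these data known. Named genes were the members, all defensins, the 10 genes most like each member, 10 neighbours on each side (values where limma's overall test was passed), up to 4 called genes of each list by range of stage means, and STAR, HSD3B2, KRT8, KRT18, CCR6 and INHA. Alternatives covered dim probe sets, scaling, variance model, array weights, threshold, probe set, replicate block and arrays left out.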

Additional observations from a re-analysis of the deposited data

Results flagged for a closer look

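The mid arrays of DEFB119 on probe set MmugDNA.43174.1.S1_at held 1 array far from the others. Mid replicate 1 read 6.45, and the other mid arrays 4.24, 4.01 and 3.97, so the gap to the nearest array was 0.894 of the whole range of the 4. It was the 1 group past this criterion among the 25 groups of 4 arrays examined (5 probe sets in 5 stages), and chance alone flags about 1 group in 20.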

How the results depend on the processing

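With 4 arrays per stage, and background on the array set by viral probe sets, differences of dim probe sets are poorly resolved. DEFB119 and DEFB122 kept the direction of their late and very-late differences on their brightest probe sets under both other scalings and in all 20 fits without 1 array: DEFB119 late -4.31 to -3.79 and very-late -4.64 to -4.13, DEFB122 late -4.58 to -3.69 and very-late -6.74 to -6.26. The choice of probe set moved them: DEFB119 very-late was -3.58 on MmugDNA.43174.1.S1_at, DEFB122 late and very-late were -0.54 and -0.51 on MmugDNA.12990.1.S1_at, and on MmugDNA.28208.1.S1_at they were -0.0839 and 0.00244, the last with the sign turned on a probe set at background.

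An adjusted p under 0.01 left 7295 probe sets for any difference, 1748 for late and 6447 for very-late minus early, and 9 listed genes in late in place of 16. Other defensins past the test, 0 in each comparison with all arrays, numbered 1 in late under each of 4 changes: no dim probe sets, no very-late replicates 1 and 2, a trended and robust prior, and array weights. In very-late they numbered 1 with cyclic loess scaling, 2 with median centring and 1 without very-late replicates 1 and 2, which also gave 1 for any difference. Leaving out 1 array gave 0 to 1 in late (1 without early replicate 2 or very-late replicate 1, 2 or 4) and 0 to 1 in very-late (1 without early replicate 2 or very-late replicate 1 or 4). Probe sets called in late minus early ran from 2588, without early replicate 3, to 4933. The cause was not tested.

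Replicate numbers were checked for pairing: deviations of same-numbered arrays had a mean r of -0.01, and 3 of 20 arrays correlated best with one of their own number, so they share only a number. With it as a replicate block, 10855 probe sets were called for any difference, 3813 in late and 9596 in very-late minus early, and other defensins stayed at 0. The block ended the late call of EMCN, an endothelial marker (limma adjusted p = 0.0662), and no other call of a named gene. The within-stage r of DEFB119 and DEFB122 was 0.28 to 0.45 when 1 array was left out and 0.61 on the arrays with high mitochondrial signal. No named gene turned its direction where it was called.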
